A study of Saccharomyces cerevisiae with 12 samples.

Results

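The small subunit of the yeast ribosome is built on 18S ribosomal RNA by proteins that the RPS genes encode, and the members described here are the 56 gene targets from RPS0A to RPS31 named in the files, of 6713 targets in all. They fall into 32 families, of which 24 have an A and a B copy and 8 have a single copy, among them RPS12, RPS15, RPS20 and RPS31. Messenger RNA was sequenced in 12 libraries of Saccharomyces cerevisiae S288c, 3 for each of 4 genotypes. These were wild type, RPD3 KO (the histone deacetylase gene RPD3 removed), RPD3 S418A (Rpd3 with a serine replaced by alanine) and SWI3 S237A (the SWI/SNF remodeller subunit Swi3 with a serine replaced by alanine). Every library used here carries the label of synthetic defined medium, and the cultures were collected at an OD600 of 0.4. The protocol text shared by the series also names 20 mM caffeine for 4 h in a part of its samples.

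Ribosomal protein genes are among the most strongly transcribed genes of growing yeast, and Rap1, Fhl1 and Ifh1 drive them in step with nutrient signals. Most families kept both copies after the ancient duplication of the genome, and the copies encode identical or nearly identical proteins. Many of these genes carry an intron, which few other yeast genes do, and for some the protein acts back on its own transcript. The A and B proteins of 9 of the 24 pairs were identical in the reference, and the least alike were those of RPS7, at 87.9% identical residues.

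The targets of 36 members spanned the whole gene from start to stop codon with its intron included, and the other 20 held no intron. Intron targets were 586 to 1214 bases long, of which the intron made up 24.6% to 69.1%, and intronless targets were 171 to 768 bases long. Counts of spliced and unspliced RNA therefore cannot be told apart in the 36. Of the 36 introns, 24 began with GTATGT, 9 with GTACGT and 3 with GTATGA, and 33 held the branch sequence TACTAAC. Those without it were in RPS9A, RPS9B and RPS21A. The 5′ splice sites of 3 pairs, picked after their values were seen, are shown as examples. The balance of their copies differed between genotypes in the results below, as in most pairs. In RPD3 KO and in SWI3 S237A 20 of the 24 pairs lay outside the wild type range. Each run has 10 bases before the intron and 20 of the intron, 5′ to 3′ on the gene's strand in build R64, with the first 6 intron bases in capitals.
RPS14A (chrIII:178194-178223, minus strand): gccatgtctaGTATGTttaatcacatagtg
RPS14B (chrX:73787-73816, plus strand): atggctaacgGTACGTgaaaggggtgatat
RPS9A (chrXVI:404947-404976, plus strand): aacatgccaaGTACGTcgttaatcttctcc
RPS9B (chrII:604505-604534, plus strand): acaatgccaaGTACGTattagactatatcg
RPS21A (chrXI:551671-551700, plus strand): gggccaattaGTATGTtcgagaaatctata
RPS21B (chrX:157230-157259, minus strand): gggtcaattaGTACGTaaattatagcagat
RPS14 and RPS21 each have a copy with GTATGT and a copy with GTACGT, while both RPS9 copies have GTACGT. Not every pair with a copy of each kind is shown. RPS27, another pair far from wild type below, has GTATGT in both copies and is not shown.

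Library totals ran from 18292564 to 26952041 estimated counts, and all 56 members were tested among 6327 targets. RPD3 had 0 counts in the 3 RPD3 KO libraries and 2192 to 2567 in the wild type ones, while SWI3 had 1593 to 1917 counts in wild type and 2029 to 2405 in SWI3 S237A. Estimated counts cannot show the serine replacements. Wild type replicate 1 stood apart for these genes. The median member was higher there than in the wild type mean by 0.24 on the log2 scale, and stood at -0.08 and -0.16 in replicates 9 and 17. The counts of calls, medians and summed shares set against wild type are given with and without it.

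In wild type the members ranged widely in level per base of target, in TPM, which scales counts per effective length to the same sum in each library. RPS31, which encodes eS31 fused to ubiquitin, was highest at 9432 ± 769 TPM (SD, n = 3, as in all levels below), with 10313, 9097 and 8887 in the 3 libraries. It was followed by RPS20 at 7417 ± 559, RPS28A at 6875 ± 406, RPS12 at 5559 ± 727 and RPS26A at 5542 ± 468 TPM. RPS20 stood above RPS28A by less than 1 SD, though it did so in each of the 3 libraries. RPS12 and RPS26A did not differ beyond their spread. RPS31 ranked 7 among all targets. The 5 lowest were RPS9A at 205 ± 15.9 TPM, RPS22B at 345 ± 33.3, RPS14B at 356 ± 33.3, RPS7B at 445 ± 74.9 and RPS27A at 588 ± 94.6 TPM. RPS22B and RPS14B were within 1 SD of each other, though RPS14B was the higher in each of the 3 libraries. All 3 libraries of RPS9A were below those of both. The 5 lowest are each the lesser copy of a pair with an intron in its target, and the 5 highest have none.

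TPM divides by a length that contains the intron. The median over members was 1297 TPM for the 36 intron targets and 3443 TPM for the 20 without. As CPM (counts scaled to library size) per kilobase of target the medians were 1339 and 3482. Per kilobase of coding length alone they were 2620 and 3482, so the gap was smaller. RPS9A was still the lowest of the 56 on the coding scale and RPS31 the highest. The RPS9 family was the most lopsided, with RPS9B at 91.3% ± 1.34 of the pair's counts in wild type.

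Together the members took 14.3%, 12.6% and 12.0% of all TPM in wild type replicates 1, 9 and 17, and 13.9%, 14.6% and 14.3% in RPD3 KO replicates 4, 12 and 20. Wild type replicates 9 and 17 were below every RPD3 KO library, and replicate 1 lay within their range. The mean share was 13.0% ± 1.21 in wild type, 14.3% ± 0.315 in RPD3 KO, 13.0% ± 0.382 in RPD3 S418A and 12.7% ± 0.138 in SWI3 S237A. Against wild type the two-sided exact permutation p was 0.2, 1 and 0.9 for the mutants in that order. Without wild type replicate 1, a test added after the data were seen, the wild type mean was 12.3%, and p was 0.1, 0.3 and 0.2, where 0.1 is the smallest that 3 against 2 libraries allow. RPD3 KO and wild type then did not overlap. RPD3 KO and RPD3 S418A libraries did not overlap, at the smallest exact p that 3 against 3 libraries allow, 0.1.

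In the TMM-scaled fit of all 12 libraries few members passed the test in RPD3 KO, although most of the genome did. By edgeR's quasi-likelihood test at an adjusted p under 0.05, 4 of the 56 rose and 8 fell, or 21.4%, against 69.9% of all tested targets. Higher calls were 31.9% and lower calls 38.0% of all targets. The median member was at -0.01 on the log2 scale, beside -0.06 for all tested targets. Its sign turned with several alternatives, to 0.11 without wild type replicate 1, where all targets stayed at -0.06, and to 0.04 with RLE scaling. RPS14B, RPS9A and RPS28B fell and RPS27A rose under each of the 20 alternatives in which single members were refitted. Those were 8 other settings and 12 fits that left out 1 library each. The split between higher and lower calls depended on scaling, at 8 higher and 5 lower with RLE scaling and 26 higher and 3 lower with total counts only. Calls over all tested targets moved as well, from 2018 higher and 2407 lower to 2164 and 2222 with RLE scaling and 2650 and 1749 with total counts only. Without wild type replicate 1 the members' split was 23 higher and 5 lower, beside 2088 and 2440 over all targets. Without SWI3 S237A replicate 2, which shares the scaling and the spread, the members' split was 8 higher and 3 lower. Over all targets it was 2224 and 2114. Leaving out wild type replicate 9, wild type replicate 17 or RPD3 KO replicate 12 gave 1 higher member, beside 1865, 1941 and 1912 over all targets. Without RPD3 KO replicate 20 there were 2, beside 1881. The members' lower calls were 5 without RPD3 KO replicate 4 and 5 without replicate 20, beside 2246 over all targets in each.

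RPS14B (YJL191W, R64 chrX:73787-74611, plus strand) encodes uS11, a protein of the platform of the small subunit, and the Rps14 protein is known to bind the RPS14B pre-mRNA and block its splicing. RPS14B had 357, 298 and 275 CPM in wild type and 182, 205 and 179 in RPD3 KO. All RPD3 KO libraries were below all wild type ones, with a log2 fold change of -0.72 ± 0.10 (SE) and an edgeR adjusted p of 3.58e-05. RPS14A, the main copy, had 1998, 1751 and 1739 CPM in wild type and 1554, 1811 and 1591 in RPD3 KO. Its groups overlapped, and it did not pass the test (-0.15 ± 0.09, adjusted p = 0.172 by edgeR).

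RPS9A (YPL081W, R64 chrXVI:404950-406044, plus strand) encodes uS4, which lines the messenger entry channel, and its intron is known to take part in control by the Rps9 protein. Wild type had 219, 239 and 229 CPM and RPD3 KO 147, 158 and 152, with no overlap (-0.59 ± 0.06, adjusted p = 2.76e-06 by edgeR). RPS9B, whose protein is 97.5% identical, had 2821, 2296 and 2169 CPM in wild type and 2435, 2892 and 2550.3 in RPD3 KO, and did not pass (0.11 ± 0.10, adjusted p = 0.347 by edgeR).

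RPS28B (YLR264W, R64 chrXII:673131-673334, plus strand) encodes eS28 in the head of the subunit, and Rps28 with Edc3 is known to speed the decay of the RPS28B messenger. It had 424, 390.3 and 362 CPM in wild type and 288.1, 327 and 278 in RPD3 KO, again without overlap (-0.40 ± 0.08, adjusted p = 5.87e-04 by edgeR). RPS28A had 932, 801 and 779 and 733, 765 and 754 CPM. Its RPD3 KO libraries were also below all wild type ones, but the difference did not pass the test (-0.16 ± 0.09, adjusted p = 0.122 by edgeR).

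RPS27A (YKL156W, R64 chrXI:158613-159212, plus strand) encodes the zinc-binding eS27 and was the gene that rose most in RPD3 KO, from 397, 301 and 275 CPM to 401, 453 and 434 (0.41 ± 0.11, adjusted p = 0.00568 by edgeR). Every RPD3 KO library was above every wild type one, and wild type replicate 1 came closest. RPS0B for uS2 and RPS4B for eS4 also rose, by 0.26 and 0.24.

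Among intronless members, RPS12, RPS20 and RPS25A for the head proteins eS12, uS10 and eS25 each fell in RPD3 KO, by log2 fold changes of -0.28 ± 0.11, -0.28 ± 0.08 and -0.28 ± 0.08. RPS20 had 2587, 2231 and 2086 CPM in wild type and 1813, 1915 and 1962 in RPD3 KO. RPS12 had 2598, 2045 and 1899 and 1688, 1956 and 1746, so that RPD3 KO replicate 12 reached into the wild type range. With total counts only these 3 no longer passed, at -0.10 each. RPS12 kept its call in 10 of the 20 alternatives, and RPS20 and RPS25A in 15 each. RPS26A and RPS30A completed the 8 that fell, at -0.23 and -0.19, and each kept its call in 4 of the 20 alternatives.

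**Figure D1:**
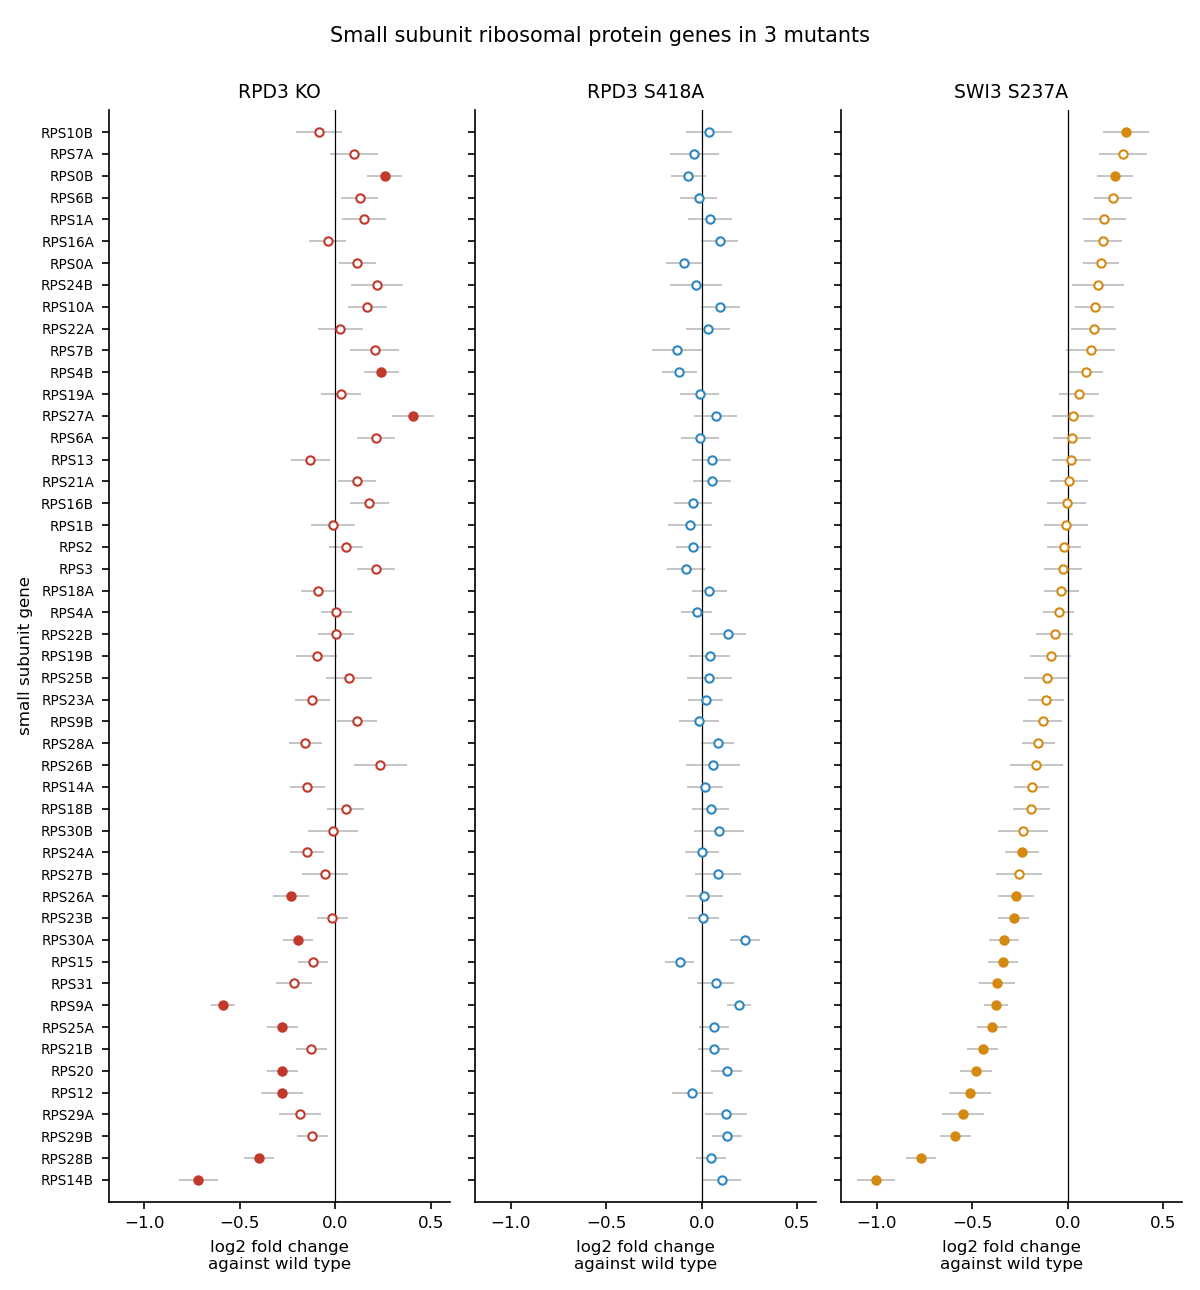
Log2 fold change against wild type (x axis) of 49 of the 56 genes (y axis, ordered by SWI3 S237A) in RPD3 KO, RPD3 S418A and SWI3 S237A, as edgeR estimates with bars for 1 SE and 3 libraries per genotype. Filled circles passed an adjusted p of 0.05; RPS14B lies lowest in RPD3 KO and SWI3 S237A, and no circle is filled in RPD3 S418A.

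In SWI3 S237A more members fell. Of the 56, 2 rose and 17 fell by edgeR, 33.9% together, against 60.0% of all tested targets, of which 28.7% were higher and 31.3% lower. The median member was at -0.06, beside -0.02 for all tested targets. Without wild type replicate 1 the sign of the median turned, to 0.06, with all targets at -0.02, and it was 0.09 with limma on log2(TPM + 1) and 0.04 with a length trend removed. Of the 17, 13 kept a lower call under all 20 alternatives, while neither RPS10B nor RPS0B, the 2 that rose, did. Without wild type replicate 1 the counts were 21 higher and 14 lower. Each other library left out but RPD3 S418A replicates 3 and 19 moved the higher count to 0 or 1, beside 1592 to 1789 over all targets. With total counts only the members' counts were 9 and 16, and with RLE scaling 4 and 15. Over all targets the calls went from 1816 higher and 1983 lower to 1981 and 1735 with total counts only and 1931 and 1882 with RLE scaling. Without wild type replicate 1 they were 1965 and 2083. This comparison and that of RPD3 KO use the same wild type libraries, so values in the 2 mutants are set side by side and their likeness is not tested.

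RPS14B fell most in SWI3 S237A, to 142, 160.1 and 161 CPM from 357, 298 and 275 in wild type (-1.005 ± 0.10, adjusted p = 3.59e-06 by edgeR). Over the alternatives its log2 fold change ran from -1.08 to -0.87. RPS14A at 1507, 1646 and 1659.9 CPM did not pass (-0.19 ± 0.09, adjusted p = 0.0942 by edgeR), though all 3 libraries were below the lowest of wild type. RPS28B fell to 226, 233 and 233 CPM from 424, 390.3 and 362 (-0.77 ± 0.08, adjusted p = 4.25e-06 by edgeR), while RPS28A had 729, 831 and 697 CPM and did not pass (-0.15 ± 0.09, adjusted p = 0.14 by edgeR). RPS9A fell to 171, 178 and 180.5 CPM (-0.38 ± 0.06, adjusted p = 2.12e-04 by edgeR), less than in RPD3 KO, and that difference between mutants was not tested.

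Both copies of RPS29, for the small zinc-binding head protein uS14, fell in SWI3 S237A. RPS29B had 568, 497 and 468 CPM in wild type and 324, 343 and 351 in SWI3 S237A (-0.59 ± 0.08, adjusted p = 4.94e-05 by edgeR). RPS29A had 352, 269 and 251 and 197, 213 and 185 (-0.55 ± 0.11, adjusted p = 9.23e-04 by edgeR). For both copies every SWI3 S237A library was below every wild type one. In RPD3 KO neither copy passed, at -0.12 ± 0.08 and -0.18 ± 0.11.

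Some single-copy head genes fell as well in SWI3 S237A. RPS12 went from 2598, 2045 and 1899 CPM to 1478, 1549 and 1557 (-0.51 ± 0.11, adjusted p = 0.00132 by edgeR). RPS20 went from 2587, 2231 and 2086 CPM to 1636, 1725 and 1585 (-0.48 ± 0.08, adjusted p = 2.62e-04 by edgeR). RPS31 (-0.37) and RPS15 for uS19 (-0.34) completed the 4 of 8 single-copy members that fell. The other 4 did not pass, among them the head gene RPS3 at -0.03 ± 0.10 and the body genes RPS2 at -0.02 ± 0.09 and RPS13 at 0.02 ± 0.10. Of the 22 head members 8 fell and 1 rose, and of the 34 body members 9 fell and 1 rose.

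Of the pairs, RPS21 and RPS25 each had 1 copy that fell in SWI3 S237A. RPS21B, for eS21 of the body, had 1050.2, 873 and 856 CPM in wild type and 674, 698 and 669 in SWI3 S237A (-0.45 ± 0.08, adjusted p = 4.55e-04 by edgeR). RPS21A had 609, 531 and 487 and 517, 535 and 583 CPM, with overlapping groups (0.01 ± 0.10). RPS25A had 1309, 1181 and 1113 and 883, 927 and 923 CPM (-0.40 ± 0.08, adjusted p = 8.78e-04 by edgeR), while RPS25B was at -0.11 ± 0.12 and did not pass. Genes that fell less were RPS30A (-0.33), RPS23B (-0.28), RPS26A (-0.27) and RPS24A (-0.24). RPS10B (0.30 ± 0.12) and RPS0B (0.25 ± 0.09) rose.

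**Figure D2:**
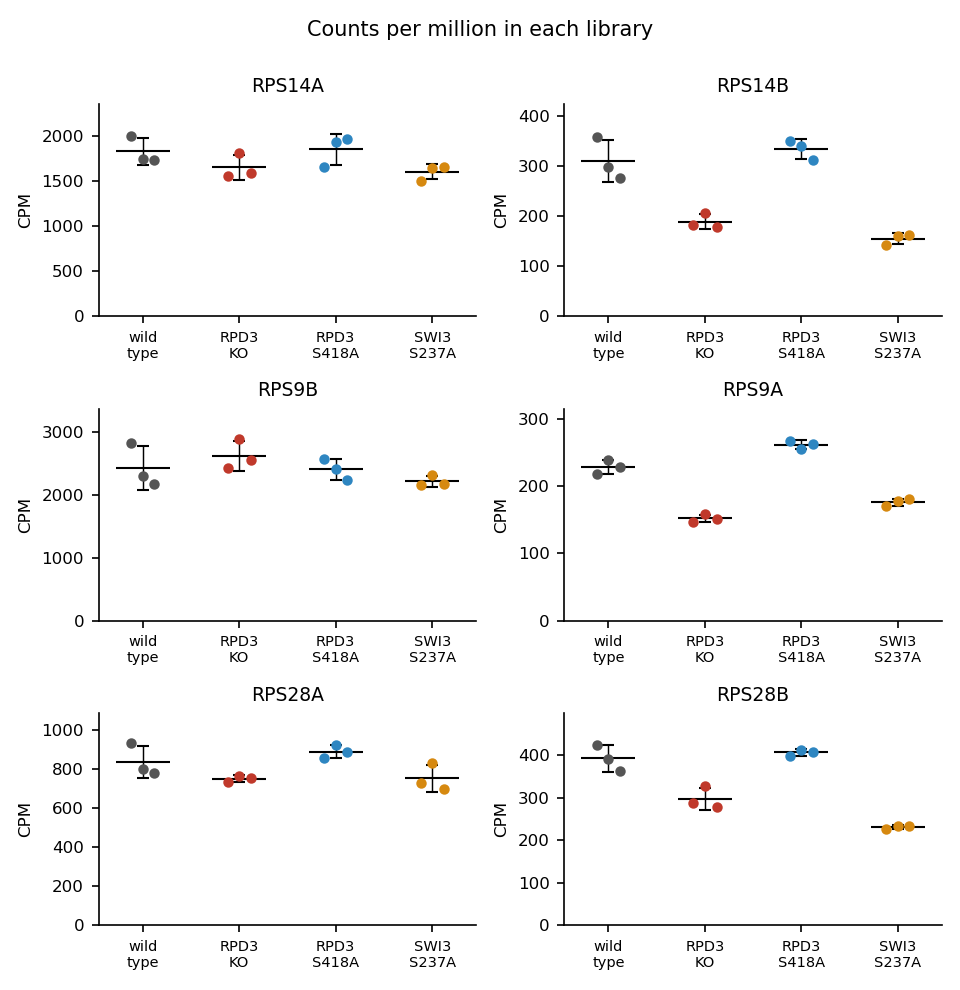
CPM (y axis, from 0) of both copies of RPS14, RPS9 and RPS28 in each library of the 4 genotypes, with a line for the mean and bars for 1 SD. RPS14B, RPS9A and RPS28B lie lower in every RPD3 KO and SWI3 S237A library than in every wild type library, while RPS9B overlaps wild type in both mutants.

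In RPD3 S418A no member passed the test. By edgeR 0 of 56 rose and 0 fell, against 2.02% of all tested targets, of which 0.822% were higher and 1.20% lower, and the members lay between -0.13 (RPS7B) and 0.23 (RPS30A), with SEs of 0.06 to 0.14. An unadjusted p under 0.05 was found for 2, RPS9A (0.20 ± 0.06) and RPS30A (0.23 ± 0.08), beside 1142 of all 6327 targets. DESeq2 called 1, RPS9A, higher at 0.19 with an adjusted p of 0.0396. Over all targets DESeq2 called 132 higher and 178 lower. Without wild type replicate 1, edgeR called RPS29A and RPS30A higher, at 0.29 and 0.31, beside 123 higher and 149 lower over all targets. RPS14B had 349.8, 340.0 and 311 CPM and RPS28B 399, 413 and 407, both overlapping wild type. The median member was at 0.03, and at 0.16 without wild type replicate 1, beside -0.005 and 0 for all tested targets. RPS9A had 268, 256 and 263 CPM, all above its wild type libraries.

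The 2 RPD3 mutants were also compared directly, without the wild type libraries in the contrast. Between RPD3 S418A and RPD3 KO, 12 members were higher and 6 lower in RPD3 S418A by edgeR, 32.1% of the 56 against 72.7% of all tested targets, of which 39.4% were higher and 33.3% lower. The largest differences were RPS14B (0.82 ± 0.10, adjusted p = 9.25e-06) and RPS9A (0.79 ± 0.06, adjusted p = 1.74e-07). RPS28B followed at 0.45 ± 0.08, RPS30A at 0.42 ± 0.08, RPS20 at 0.41 ± 0.08 and RPS25A at 0.34 ± 0.08, all higher in RPD3 S418A. RPS30A had 1065, 1072 and 1066 CPM in RPD3 S418A and 735, 843 and 815 in RPD3 KO, without overlap. RPS4B was lower (-0.36 ± 0.09), with 1594, 1596 and 1484 CPM against 1946, 2077 and 1966. Of the 18, 5 higher and 3 lower calls held under all 20 alternatives. With RLE scaling the split was 8 higher and 11 lower, and with total counts only 6 higher and 24 lower. Over all targets it went from 2496 higher and 2106 lower to 2332 and 2278 with RLE scaling and 1937 and 2607 with total counts only. Leaving out 1 library gave 6 to 17 members higher and 3 to 14 lower, beside 2266 to 2604 and 1979 to 2312 over all targets. Moves over 1.5 times came without wild type replicate 1 (14 lower) or 17 (10 lower), SWI3 S237A replicate 2 (6 higher and 11 lower), RPD3 KO replicate 4 or 20 (7 higher each) and RPD3 KO replicate 12 (3 lower).

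The balance between the A and B copies of a pair does not depend on how libraries are scaled, since it is the ratio of 2 counts in the same library. In RPD3 KO the A to B ratios of 20 of the 24 pairs lay wholly outside the wild type range, 9 toward A and 11 toward B. In SWI3 S237A they did so in 20 of 24, 12 toward A and 8 toward B. In RPD3 S418A they did so in 2 of 24, or 3 to 8 when 1 library was left out, with 8 lacking wild type replicate 1. Leaving out a library can only narrow a group's range, so that count could rise but not fall. RPD3 S418A lay outside RPD3 KO in 22 of 24. The same measure over the 35 pairs of large subunit genes gave 71.4%, 60.0%, 8.57% and 74.3% in the same order. Pairs that did not overlap reached the smallest exact permutation p of 0.1, so no pair passed 0.05. The median size of the difference over the 24 pairs was 0.24 on the log2 scale in RPD3 KO, 0.19 in SWI3 S237A and 0.05 in RPD3 S418A.

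The RPS14 balance lay toward A in both RPD3 KO and SWI3 S237A. The log2 ratio of RPS14A to RPS14B was 2.48, 2.55 and 2.66 in wild type, 3.10, 3.14 and 3.16 in RPD3 KO, 3.41, 3.36 and 3.36 in SWI3 S237A and 2.25, 2.51 and 2.66 in RPD3 S418A. In counts this was 5.92 to 1 in wild type, 8.76 to 1 in RPD3 KO and 10.4 to 1 in SWI3 S237A. RPS14B made up 14.5% ± 0.749 of the pair in wild type and 8.78% ± 0.138 in SWI3 S237A.

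The RPS9 balance lay toward B in RPD3 KO. Its log2 ratio of A to B was -3.69, -3.26 and -3.24 in wild type and -4.05, -4.19 and -4.07 in RPD3 KO, a difference of -0.71 ± 0.15 (SE). In RPD3 S418A it was -3.26, -3.24 and -3.09, overlapping wild type and apart from RPD3 KO by 0.91 ± 0.07. Wild type replicate 1 lay near the SWI3 S237A values of -3.66, -3.70 and -3.59.

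RPS27 and RPS26 also stood far from wild type in RPD3 KO. The RPS27 ratio was -1.32, -1.33 and -1.34 in wild type and -0.80, -0.90 and -0.90 in RPD3 KO, toward A by 0.46 ± 0.03, and toward A by 0.29 ± 0.02 in SWI3 S237A. RPS26, for eS26 at the messenger exit, was 0.71, 0.98 and 1.06 in wild type and 0.41, 0.43 and 0.43 in RPD3 KO, toward B by -0.49 ± 0.11. In RPD3 S418A against RPD3 KO these 2 pairs differed by -0.47 ± 0.07 and 0.42 ± 0.03.

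RPS28 and RPS21 were, like RPS14, among the 5 pairs furthest from wild type in SWI3 S237A. The RPS28 ratio was 1.14, 1.04 and 1.11 in wild type and 1.69, 1.84 and 1.58 in SWI3 S237A, toward A by 0.61 ± 0.08. RPS21 was -0.79, -0.72 and -0.81 in wild type and -0.38, -0.38 and -0.20 in SWI3 S237A, toward A by 0.45 ± 0.07. In 4 pairs, among them RPS4, RPS6 and RPS24, over 20% of the 31-base words of each copy are also in the other. How reads were divided between the copies of these 4 is therefore uncertain. Over the copies of all pairs the median share was 7.27% and the highest 78.2%.

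Some pairs lay on opposite sides of wild type in the 2 mutants. RPS16, for uS9, lay toward B in RPD3 KO by -0.22 ± 0.03 and toward A in SWI3 S237A by 0.19 ± 0.05. RPS10, for eS10, lay toward A by 0.25 ± 0.03 and toward B by -0.17 ± 0.05. RPS16 and RPS7 were the 2 pairs apart from wild type in RPD3 S418A, both toward A, by 0.14 ± 0.05 and 0.09 ± 0.03.

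**Figure D3:**
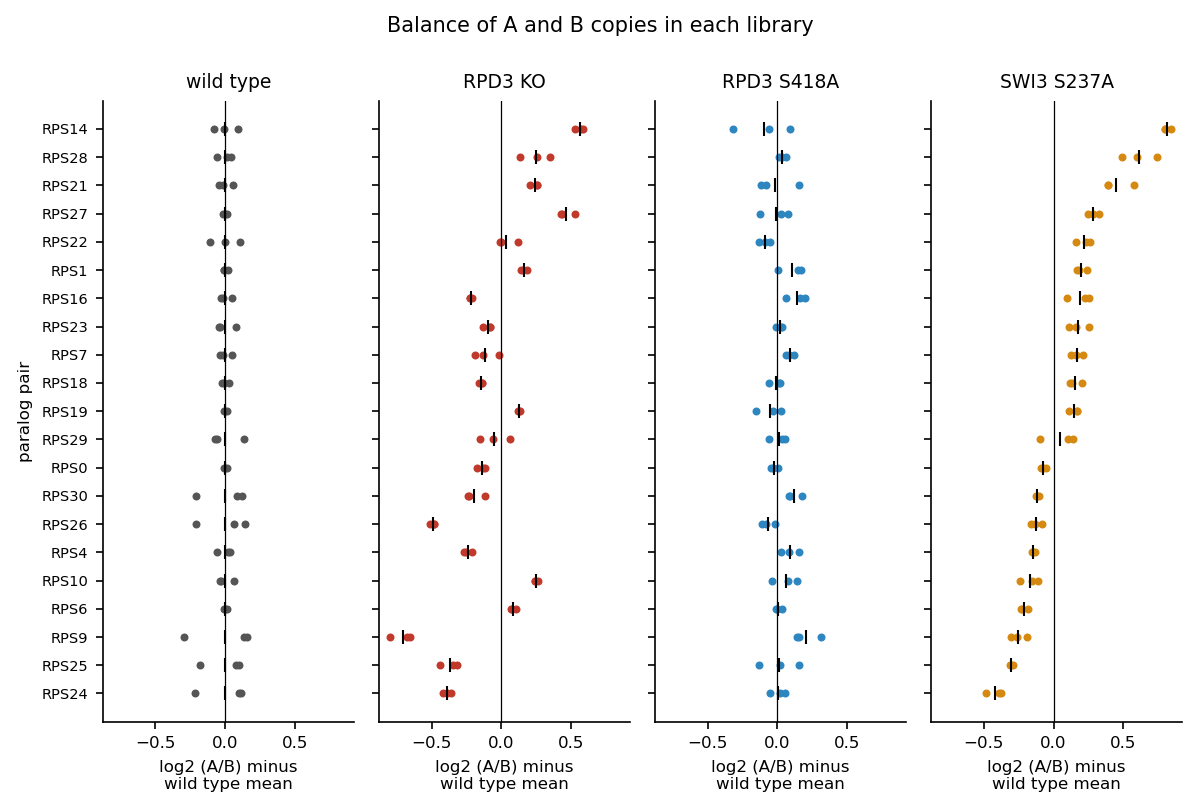
Log2 ratio of A to B counts minus the wild type mean (x axis) for 21 of the 24 pairs (y axis, ordered by SWI3 S237A), with a point per library and a bar for the mean of the 3 libraries of a genotype. RPD3 S418A stays near 0 for most pairs, while RPS14 lies furthest right in RPD3 KO and SWI3 S237A and RPS9 furthest left in RPD3 KO.

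The copies of each pair were also added, which leaves 32 features in place of 56. Of the 32 families, 0 rose and 4 fell in RPD3 KO by edgeR, or 12.5% against 70.2% of all features in that fit, namely RPS14 (-0.22), RPS28 (-0.23), RPS12 and RPS20. In SWI3 S237A 0 rose and 11 fell, or 34.4% against 60.1%, with RPS29 lowest at -0.58 ± 0.09. RPS14 as a whole was among them, at -0.28, against -1.005 for RPS14B. RPS9 did not pass as a whole in either, at 0.06 in RPD3 KO and -0.15 in SWI3 S237A. In RPD3 S418A 0 families passed against 2.06% of all features, and between RPD3 S418A and RPD3 KO 7 were higher and 3 lower, 31.3% against 72.9%.

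Members with and without an intron in the target are described by their counts, with no test of the difference. In SWI3 S237A 7 of 36 intron members fell and 2 rose, with a median of 0.00, and 10 of 20 intronless members fell and 0 rose, with a median of -0.18, beside 31.3% of all targets that fell. In RPD3 KO 3 of 36 fell and 4 rose with a median of 0.00, beside 5 of 20 and 0 with a median of -0.11, where 38.0% of all targets fell. The 2 classes also differ in length. Among intronless members, 8 of the 12 up to 450 bases fell in SWI3 S237A, with a median of -0.37, and 2 of the 8 longer ones, with a median of -0.01. Of 1012 other tested targets up to 450 bases 306 fell there, with a median of -0.13, and longer ones had a median of -0.00.

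The Spearman correlation of target length with the SWI3 S237A fold change was 0.68 over the 20 intronless members and 0.13 over all 6327 targets. In RPD3 KO against wild type these correlations were 0.48 and 0.10. In RPD3 S418A against wild type, where no member was called, they had the opposite sign, at -0.68 and -0.27. All are given as a description of genes that share the libraries. When a length trend was removed from each library, an alternative chosen after the data were seen, the gap between the intron and intronless medians went from 0.18 to 0.11 in SWI3 S237A and from 0.11 to 0.06 in RPD3 KO. The part that intron and length each play was not tested. Among intron members RPS14B and RPS9A were the lowest in RPD3 KO.

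**Figure D4:**
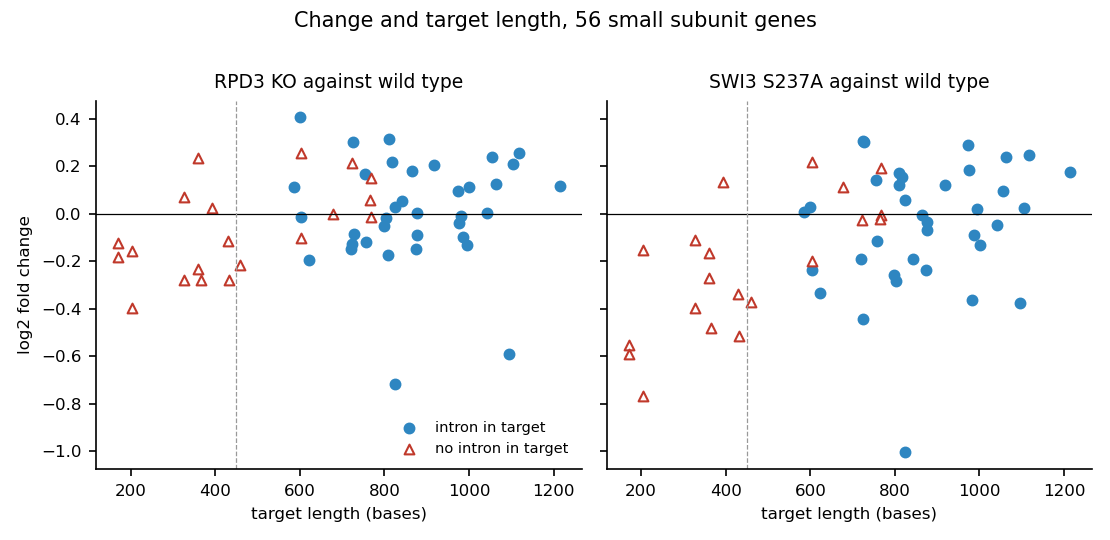
Log2 fold change (y axis) against target length in bases (x axis) for the 56 genes in RPD3 KO and SWI3 S237A, with filled circles for targets that include an intron and open triangles for those without, and a dashed line at 450 bases. In SWI3 S237A the short intronless genes lie mostly below 0, and RPS14B is the lowest circle in both.

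Sorted by the first bases of the intron, a grouping made after the values were seen and not tested, 3 of the 9 GTACGT members fell and 0 rose in RPD3 KO, and 0 of the 24 GTATGT members fell and 3 rose. In SWI3 S237A 4 of 9 and 2 of 24 fell. Over all targets 38.0% fell in RPD3 KO and 31.3% in SWI3 S237A, so the 9 members lay near that background in RPD3 KO. The 4 in SWI3 S237A are RPS14B, RPS9A, RPS21B and RPS30A, and the first 3 are printed above. RPS9B carries GTACGT as well, and had -0.13 ± 0.10 there without passing.

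The promoters of RPS14B, RPS9A and RPS28B, picked after their values were seen, are shown because each kept a lower call under all 20 alternatives in RPD3 KO and in SWI3 S237A. RPS20, RPS25A, RPS26A and RPS30A were below every wild type library in both mutants too, but did not keep their RPD3 KO calls under all of them. Each run spans 250 bases before to 50 after the gene start in R64, on the gene's plus strand, with matches to the searched motifs in capitals, either strand, the run of 7 A letters left out.
RPS14B (chrX:73537-73836): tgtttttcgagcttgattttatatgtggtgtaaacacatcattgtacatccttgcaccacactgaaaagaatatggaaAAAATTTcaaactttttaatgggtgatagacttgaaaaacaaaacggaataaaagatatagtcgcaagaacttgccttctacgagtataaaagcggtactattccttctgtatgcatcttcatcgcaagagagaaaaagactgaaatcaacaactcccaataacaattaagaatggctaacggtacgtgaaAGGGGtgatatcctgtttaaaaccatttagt
RPS9A (chrXVI:404700-404999): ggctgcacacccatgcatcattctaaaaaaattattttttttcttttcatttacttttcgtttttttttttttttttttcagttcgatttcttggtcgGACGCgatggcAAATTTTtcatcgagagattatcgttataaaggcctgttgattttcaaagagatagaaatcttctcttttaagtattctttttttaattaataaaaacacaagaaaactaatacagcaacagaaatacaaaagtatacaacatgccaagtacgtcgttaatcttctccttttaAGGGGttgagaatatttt
RPS28B (chrXII:672881-673180): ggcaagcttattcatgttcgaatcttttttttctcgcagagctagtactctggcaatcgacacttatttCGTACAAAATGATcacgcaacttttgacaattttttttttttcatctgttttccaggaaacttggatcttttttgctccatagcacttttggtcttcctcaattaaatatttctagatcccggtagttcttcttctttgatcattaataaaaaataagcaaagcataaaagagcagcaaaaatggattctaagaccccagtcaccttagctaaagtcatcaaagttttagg
RPS9A holds AAATTTT (the RRPE core) before the gene start and RPS14B holds it on the other strand, and both have AGGGG (the stress element) inside the intron. RPS9A alone of the 3 has GACGC, the Fhl1-type motif, and RPS28B alone has the Abf1 consensus, on the other strand.

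Over all 56 members the Rap1-type motif ACCCNNACA was in 7.14% of promoters, beside 2.83% of all 6001, and GACGC in 32.1% beside 17.7%. AAATTTT was in 28.6% beside 23.2%, AGGGG in 19.6% beside 21.6%, the Abf1 consensus in 5.36% beside 12.0%, and AAAAAAA in 35.7% beside 49.9%. ACCCTAA (Tbf1-type) was in 0 members beside 1.98%, and CGATGAG (PAC core) in 0 beside 7.02%. All were searched on both strands, matches may overlap, and a match is only a run of letters. Sites outside the 250 bases before to 50 after the gene start, or with other letters, were not counted.

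The other genes of the pathway are given beside the 69.9% of all targets that passed in RPD3 KO and the 60.0% in SWI3 S237A. Of 17 genes for small subunit assembly and its companions, 14 rose and 1 fell in RPD3 KO by edgeR, and 13 rose and 0 fell in SWI3 S237A, with medians of 1.74 and 0.74. LTV1, which carries new subunits toward the cytoplasm, rose by 2.97 ± 0.55 and 1.45 ± 0.53, and NOB1, the nuclease that matures 18S RNA, by 2.41 ± 0.17 and 0.74 ± 0.17. In RPD3 S418A 0 of 17 passed by edgeR, beside 2.02% of all targets. An unadjusted p under 0.05 was found for 5 of the 17, beside 1142 of all 6327 targets. The median of the 17 there was -0.40, beside -0.005 for all tested targets, and the 17 ran from -1.26 to 0.02.

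Of 11 regulators of ribosomal protein genes, 6 rose and 3 fell in RPD3 KO, and 5 rose and 1 fell in SWI3 S237A. IFH1, the coactivator, rose by 1.73 ± 0.12 in RPD3 KO and 0.47 ± 0.12 in SWI3 S237A. RAP1 rose by 0.88 ± 0.07 and 0.88 ± 0.07, and FHL1 by 0.87 ± 0.09 and 0.28 ± 0.09. TOD6, a repressor that recruits Rpd3, rose by 3.88 ± 0.35 and 1.96 ± 0.34, and ABF1 fell by 0.76 and 0.84. Of 15 spliceosome genes 10 rose and 4 fell in RPD3 KO and 5 rose and 1 fell in SWI3 S237A. The 81 large subunit and stalk protein genes had 13 higher and 7 lower in RPD3 KO and 5 higher and 22 lower in SWI3 S237A.

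The authors' deposited table for RPD3 KO has 8 members higher and 3 lower at an adjusted p under 0.05, that for SWI3 S237A 5 higher and 14 lower, and that for RPD3 S418A 0 and 0. Of all targets given an adjusted p there, 62.6%, 51.8% and 1.57% passed, in that order. In the authors' deposited tables RPS14B is at -0.67 in RPD3 KO and -0.98 in SWI3 S237A, and RPS27A at 0.45 in RPD3 KO.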

How the data were processed

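The submitters' processing notes name Trimmomatic 0.36, kallisto 0.44.0 and build R64, with no parameters. Each library's deposited table gives an estimated count, a TPM value, a length and an effective length for every target, per the file headers. In the authors' deposited comparisons each target has a mean signal, a log2 fold change, a Wald score, a p-value and an adjusted p-value, per the file headers. Columns not used numbered 0. The sources used here do not say how strand was handled.

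After rounding of the estimated counts, edgeR 4.0.16 in R 4.3.3 gave a single quasi-likelihood fit of 12 libraries, scaled by TMM, and its default filter kept 6327 of 6713 targets. Calls used a Benjamini-Hochberg adjusted p under 0.05 over all tested targets. CPM values are TMM-scaled. Ratios of A to B used unrounded counts and two-sided exact permutation (20 assignments). Alternatives were RLE scaling, total counts, no filter, only the 2 groups compared, DESeq2 1.42.0, limma 3.58.1 on log2(TPM + 1), summed copies, each library left out and, added after the data were seen, removal of a loess length trend of span 0.5 and a replicate block of consecutive library numbers. The fit was tested on simulated data with known changes.

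Sequences, introns and positions came from the RefSeq annotation of R64. Nothing in the labels says that replicates came from separate cultures, so p-values measure the spread between these libraries. Members and gene lists were chosen with earlier results of these data known. Named genes were taken from the 8 largest called changes of a comparison, the copies of the 5 non-overlapping pairs whose ratio differed most, the 5 highest and 5 lowest members in wild type TPM, and RPD3 and SWI3, without those not reported by name. Others named were picked after their values were seen. Some members are counted but not reported by name here.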

Additional observations from a re-analysis of the deposited data

How the results depend on the processing

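The genotypes share no replicate numbers in the labels, and nothing there says that neighbouring numbers mark a batch. The numbers do form 3 consecutive sets with a library of each genotype, whose deviations from the group means correlated across genes by -0.12 to 0.27, over 0.1 in 4 of 18 pairs. A replicate block on these sets, added after the data were seen, gave 6 higher and 6 lower members in RPD3 KO, 5 and 16 in SWI3 S237A, 0 and 0 in RPD3 S418A, and 11 and 7 in RPD3 S418A against RPD3 KO. In RPD3 KO against wild type, where 4 members were higher and 8 lower, the counts were 8 and 5 with RLE scaling and with DESeq2, 26 and 3 with total counts only, 2 and 3 with only the 2 groups compared, 29 and 3 with limma on log2(TPM + 1), 10 and 3 with the length trend removed and 0 and 4 with copies summed. Leaving out 1 library gave 1 to 23 members higher and 3 to 10 lower, beside 1865 to 2224 and 2114 to 2461 over all targets. Calls over all targets were 2650 higher and 1749 lower with total counts only and 2686 and 1684 with limma. The median member went from -0.01 to 0.17 with total counts only and 0.19 with limma, where the median of all targets went to 0.12 and 0.14. It was 0.04 with RLE scaling, DESeq2 and only the 2 groups compared, 0.075 with the length trend removed, and -0.088 to 0.115 without 1 library, the highest lacking wild type replicate 1. In RPD3 S418A against wild type DESeq2 gave 1 higher, and leaving out 1 library 0 to 2. Over all targets DESeq2 gave 132 higher, and leaving out 1 library 22 to 123. In SWI3 S237A against wild type the 2 higher calls became 4 with RLE scaling, 9 with total counts only, 5 with DESeq2, 0 with only the 2 groups compared, 17 with limma, 6 with the length trend removed and 0 with copies summed, and 0 to 21 without 1 library. The 17 lower calls became 11 with copies summed. Calls over all targets were 1981 higher and 1735 lower with total counts only and 2333 and 1407 with limma. Without 1 library 1592 to 1965 of all targets were higher. The median of -0.06 became 0.09 with limma and 0.04 with the length trend removed, and -0.13 to 0.06 without 1 library.

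In RPD3 S418A against RPD3 KO the 12 higher calls became 6 with total counts only, 5 with limma, 5 with the length trend removed and 7 with copies summed, and 6 to 17 without 1 library. The 6 lower calls became 11 with RLE scaling and with DESeq2, 24 with total counts only, 15 with only the 2 groups compared, 31 with limma, 15 with the length trend removed and 3 with copies summed, and 3 to 14 without 1 library. Calls over all targets were 1937 higher and 2607 lower with total counts only and 1731 and 2789 with limma. Without 1 library they were 2266 to 2604 higher and 1979 to 2312 lower. The median of 0.02 became -0.036 with RLE scaling and with DESeq2, -0.15 with total counts only, -0.048 with only the 2 groups compared, -0.21 with limma and -0.12 with the length trend removed, and -0.055 to 0.054 without 1 library.

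The intron minus intronless median became 0.058 in RPD3 KO, 0.11 in SWI3 S237A and -0.024 in RPD3 S418A against RPD3 KO with the length trend removed. Without 1 library it ran from 0.090 to 0.18 in RPD3 KO and from -0.10 to -0.051 in the last. As a share of counts the members took 7.19% in wild type, 8.16% in RPD3 KO, 7.30% in RPD3 S418A and 7.05% in SWI3 S237A. Pairs apart in RPD3 S418A numbered 3 to 8 without 1 library, a count that leaving out a library can raise but not lower. Except for summed copies, which leave fewer features, the causes were not tested. With 3 libraries a group, single pairs could not pass an exact p of 0.05, and small changes of members were not detectable beyond SEs of 0.06 to 0.14.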
